A study of Mus musculus with 6 samples.

Results

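Macrophages and their monocyte precursors were read in post-ischemic kidney RNA through 41 genes of the myeloid lineage, chosen by symbol. All 41 were found among the 21367 genes of the deposited table, and all 41 passed the filter on low counts. The symbol *Itgam* also stood on a second entry, which the GENCODE M21 annotation calls Gm49368. That entry overlaps the *Itgam* locus, had at most 9.73 counts in any mouse and was not tested. The study asked how the phosphatase SHP-1, the product of *Ptpn6*, bears on renal ischemia-reperfusion injury (IRI).

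The *Ptpn6*+/mev group held 3 mice and the wild-type group 3 of their littermates. The mutants carried 1 copy of the viable motheaten (mev) allele, a splice-site mutation of *Ptpn6*, in every cell, with the other copy intact. Both groups had a C57BL/6 background, were 7 weeks old and underwent the same operation. The right kidney was removed and the vessels of the left kidney were clamped for 34 min, and the left kidney was taken after 24 h of reperfusion. Each library came from left kidney tissue of 1 mouse, so the spread within a group is that between mice and pieces of tissue. Which regions of the kidney the tissue held is not given in the sources used here. Uninjured kidneys were not analysed here, so the level of these genes before the injury was not measured.

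Macrophages reside in the healthy kidney between the tubules, and their survival depends on CSF1R, the receptor for CSF1 and IL-34. After ischemia, monocytes that carry CCR2 and Ly6C enter from the blood. Phagocytes recognize antibody-coated and damaged material through Fc and scavenger receptors, signal through the adaptors FcRγ and DAP12 and the kinase SYK, and kill with the NADPH oxidase. SHP-1 is abundant in cells of the blood lineages, where it removes phosphate from such receptors and kinases and limits their signals. Class II genes, by contrast, encode the molecules with which dendritic cells, B cells and some macrophages show peptides to T cells.

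Total counts ranged from 10271590 to 12361745 per mouse, and 15168 to 15283 genes had a count. Kidney markers were abundant in every mouse, with summed levels of 627 to 978 FPKM over 9 proximal tubule genes. FPKM is the number of fragments scaled to transcript length and library size. Wild-type replicate 2 stood apart: its summed level over 7 endothelial genes was 87.0 FPKM, against 176 to 198 in the other mice. Over 7 fibroblast genes it was 52.7 FPKM, against 148 to 254. Values without this mouse are given beside those with it where its removal turned a sign or moved a named value by over 1.5 times, and the plot of fold changes shows both for 40 genes. Libraries of 1 group differed by more than counting noise, with chi-square values of 6.27 to 43.3 per degree of freedom.

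*Ptpn6* measured 11.9, 14.7 and 13.6 FPKM in mutant replicates 1, 2 and 3, and 17.5, 10.9 and 15.4 FPKM in wild-type replicates 1, 2 and 3. The groups overlapped, because wild-type replicate 2 was the lowest of all 6 mice. The log2 fold change, mutant minus wild-type, was -0.19 (SE 0.17, edgeR quasi-likelihood adjusted p = 0.715), and -0.34 without wild-type replicate 2 (adjusted p = 0.201). The mev allele changes splicing, so the gene's total level does not check the genotype. Nor is it a level in leukocytes, because the RNA came from whole tissue. The paper's authors state that, in their earlier study of kidney cortex, tubular epithelial cells rather than macrophages held most SHP-1. In the sentences below, values for each group are given in the order of replicates 1, 2 and 3.

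No gene of the 41 differed between *Ptpn6*+/mev and wild-type kidneys at a false discovery rate (FDR) of 0.05 by edgeR's quasi-likelihood test. Among all 13036 genes tested, 18 did, or 0.138%. The median log2 fold change over the 41 genes was 0.12, with 27 above 0 and 14 below, beside -0.0024 over all genes tested. An unadjusted p below 0.05 was found for 4 of the 41 genes, beside 12.2% of all genes. *Clec4n* was the higher one in the mutants, and *Cd74*, *H2-Aa* and *H2-Ab1* were the lower ones. Without wild-type replicate 2, no gene of the 41 passed either, beside 1.80% of all genes, and the median turned to -0.091, with 16 genes above 0 and 25 below. In that comparison the 3 class II genes alone of the 41 had an unadjusted p below 0.05, beside 17.2% of all genes.

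The spread between mice limited what could be seen. The median standard error of the log2 fold change was 0.34 over the 41 genes, and 0.27 without wild-type replicate 2. For 18 genes the 95% confidence interval lay within a change of 1 on the log2 scale in either direction, and for the other 23 it reached beyond.

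**Figure D1:**
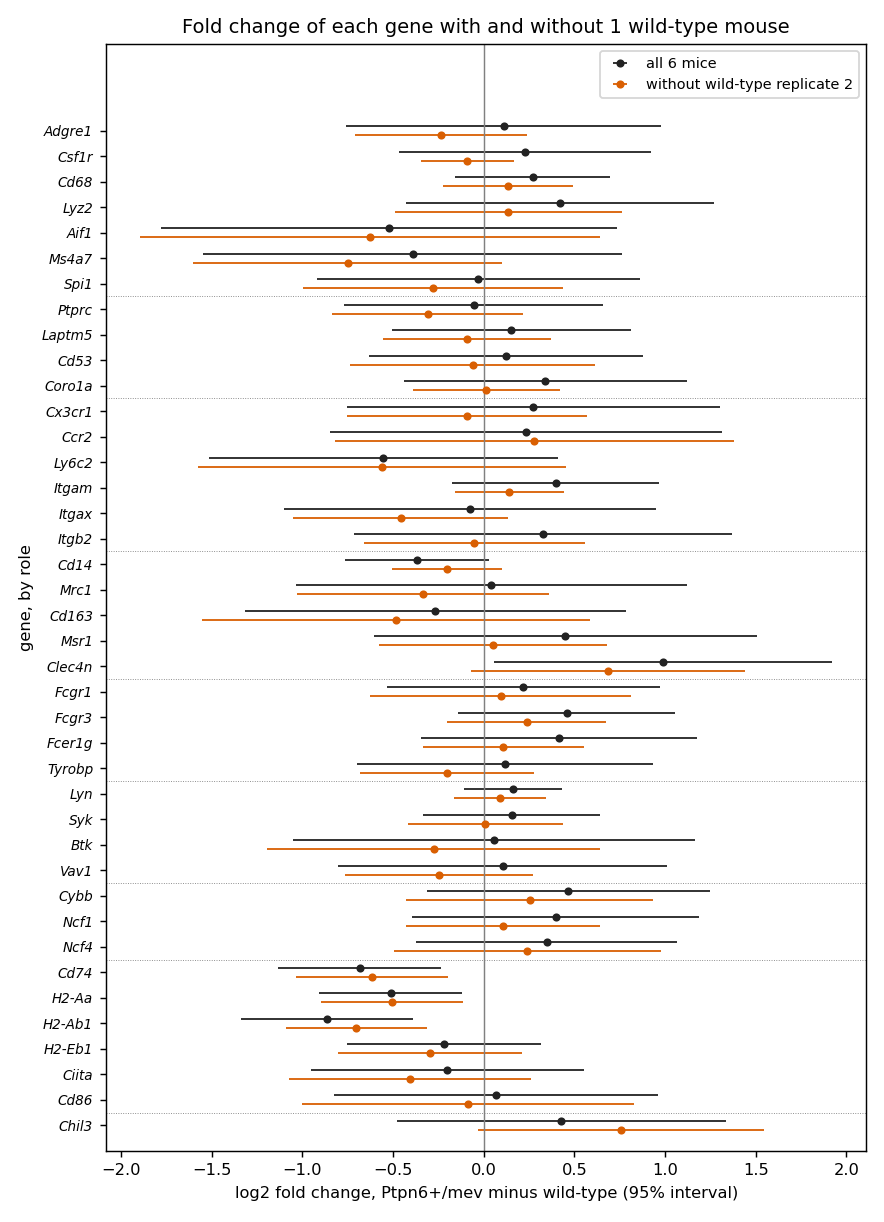
Log2 fold change of 40 of the 41 genes (horizontal axis, mutant minus wild-type, with 95% confidence intervals) in all 6 mice and without wild-type replicate 2, grouped by role. The intervals of *Cd74*, *H2-Aa* and *H2-Ab1* lie below 0 in both fits, that of *Clec4n* lies above 0 only with all 6 mice, and 11 genes change sign when the mouse is left out.

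The ordering of the mice was much alike from gene to gene. Wild-type replicate 2 was the lowest of the 6 mice in 27 of the 41 genes, beside 42.8% of all genes tested, and the lowest wild-type mouse in 34. The median ratio of its level to the mean of the other wild-type mice was 0.516. Because this mouse was singled out for low immune genes, its place here is not an independent finding. Among the mutants, replicate 1 was lowest in 37 of the 41 genes, beside 37.6% of all genes. The exceptions were *Mrc1* and *Btk*, lowest in mutant replicate 3, and *Cd163* and *Clec4n*, lowest in mutant replicate 2.

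Each group thus held 1 mouse low in most of these genes. The median log2 deviation over the 41 genes, each gene set to its own mean over the 6 mice, was -0.29, 0.33 and 0.33 in the mutants and 0.28, -0.82 and 0.13 in the wild-type mice. In bulk RNA, fewer cells of a type and less RNA per cell cannot be told apart. In wild-type replicate 2, low myeloid levels went with the low endothelial and fibroblast levels given above, and 3 of 7 distal nephron genes, *Aqp2*, *Calb1* and *Kcnj1*, were highest in that mouse. The water channel gene *Aqp2* of the collecting duct measured 431 FPKM in that mouse, against 143 and 135 FPKM in the other wild-type mice and 122 to 228 FPKM in the mutants. *Slc12a1* was also higher there, at 45.4 FPKM, than in the other wild-type mice, at 17.3 and 15.8 FPKM. The mutants had 25.5 to 53.1 FPKM. All 5 podocyte genes were lowest in wild-type replicate 2, with a sum of 84.9 FPKM, against 119 to 152 FPKM in the other mice. *Umod* measured 2198 FPKM in that mouse, against 2221 and 2155 FPKM in the other wild-type mice, and *Slc4a1* was lowest in that mouse. In mutant replicate 1 low myeloid levels went with high red blood cell genes. These summed to 1633 FPKM over 5 genes, against 621 and 589 in the other mutants, while wild-type replicate 1 had 1298. The part of these differences between mice in the results was not tested.

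**Figure D2:**
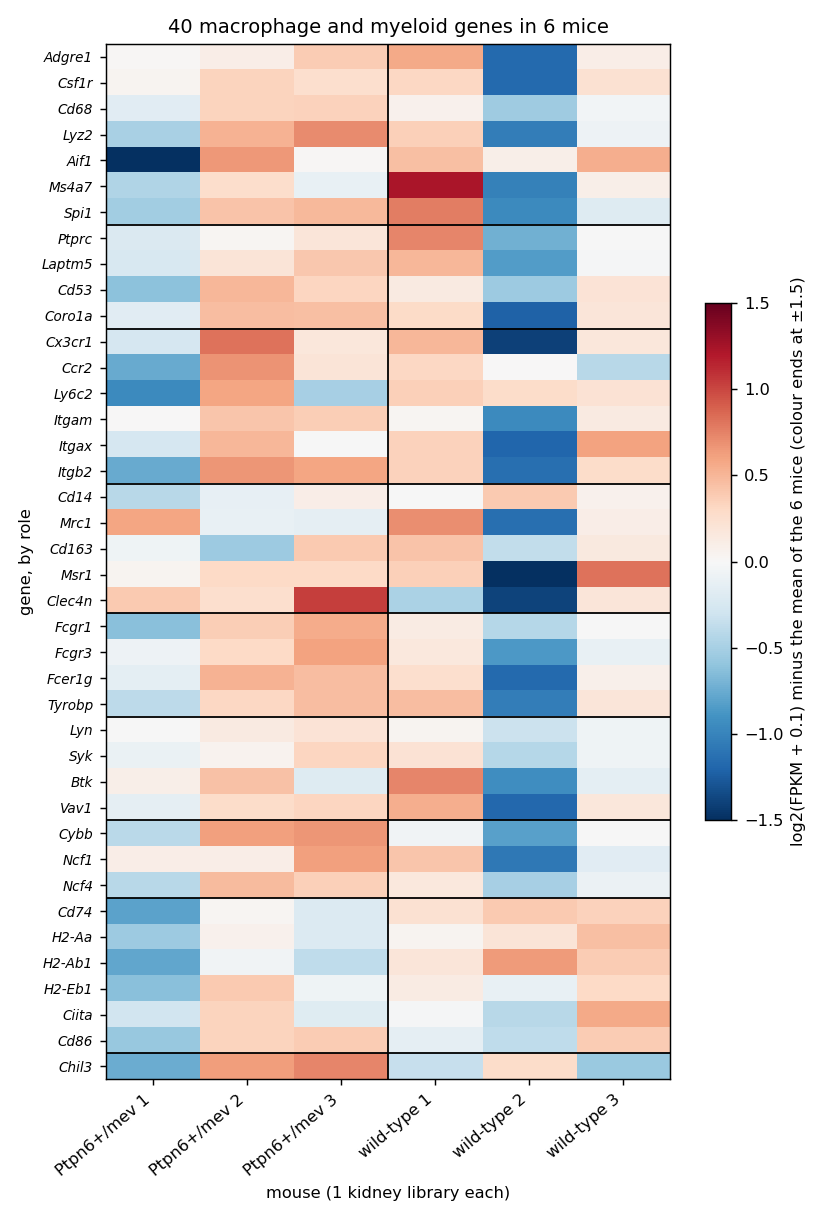
Level of 40 of the 41 genes in each mouse, as log2(FPKM + 0.1) minus the gene's mean over the 6 mice, with genes ordered by role and colours ending at ±1.5. Mutant replicate 1 and wild-type replicate 2 are low in most genes, while *Cd74* and *H2-Ab1* are highest in wild-type replicate 2.

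Levels spanned a wide range, with 14 genes above a mean of 10 FPKM over the 6 mice and 6 below 1 FPKM. *Lyz2*, which encodes the lysozyme of macrophages and neutrophils, was the most abundant at 110 FPKM. It was followed by *Cd74* at 81.2 FPKM and *Cd14* at 46.7 FPKM. *Cd163*, the haemoglobin-haptoglobin scavenger receptor, was the lowest at 0.245 FPKM, from 6 to 17 counts per mouse.

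Of the 7 genes of macrophage and monocyte identity, 4 had a log2 fold change above 0 and 3 one below, with a median of 0.11, and none passed the test. When wild-type replicate 2 was left out, 2 were above 0 and 5 below, with a median of -0.24. *Lyz2* (chromosome 10, 117277331 to 117282321, GRCm38) measured 72.3, 145 and 166 FPKM in the mutants and 130, 49.3 and 96.3 FPKM in the wild-type mice. Mutant replicates 2 and 3 were above every wild-type mouse and replicate 1 was not, so the groups overlapped. Mutant minus wild-type gave a log2 fold change of 0.42 (SE 0.37, edgeR adjusted p = 0.717), and 0.14 without wild-type replicate 2.

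*Cd68*, a lysosomal protein of phagocytes, measured 20.8, 29.5 and 29.9 FPKM in the mutants and 24.5, 16.2 and 22.9 FPKM in the wild-type mice. Again only mutant replicate 1 fell within the wild-type range. Its log2 fold change was 0.27, with a 95% interval from -0.16 to 0.70, and 0.13 without wild-type replicate 2.

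*Csf1r*, the receptor on which macrophage survival depends, measured 9.53, 11.7 and 11.0 FPKM in the mutants and 11.5, 4.05 and 10.8 FPKM in the wild-type mice. All but wild-type replicate 2 lay close together. With this mouse the difference on the log2 scale was 0.23 (SE 0.30, edgeR adjusted p = 0.833), and without it -0.091 (adjusted p = 0.733). *Adgre1*, which encodes the F4/80 antigen of resident macrophages, had 2.49, 2.65 and 3.25 FPKM in the mutants and 3.71, 1.04 and 2.66 FPKM in the wild-type mice. It too turned from 0.11 to -0.24 without wild-type replicate 2.

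*Spi1*, which encodes the myeloid transcription factor PU.1, ranged from 3.89 to 7.94 FPKM in the mutants and from 2.86 to 9.69 FPKM in the wild-type mice, with a log2 fold change of -0.03, and -0.28 without wild-type replicate 2. *Aif1* and *Ms4a7*, also expressed in macrophages, had log2 fold changes of -0.52 and -0.39, from overlapping groups, and -0.63 and -0.75 without that mouse. *Aif1* rested on 3 to 22 counts per mouse.

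The pan-leukocyte genes mark blood cells of any lineage. *Coro1a*, an actin-binding protein, measured 16.0, 25.0 and 24.8 FPKM in the mutants and 22.0, 7.74 and 20.5 FPKM in the wild-type mice. *Laptm5*, a lysosomal protein, measured 10.4, 14.1 and 16.3 FPKM in the mutants and 17.5, 6.84 and 12.2 FPKM in the wild-type mice. Both had overlapping groups with wild-type replicate 2 at the bottom. The log2 fold change of *Coro1a* was 0.34 (SE 0.34, edgeR adjusted p = 0.761), and 0.01 without that mouse. That of *Laptm5* was 0.15 (SE 0.29, adjusted p = 0.894), and -0.092 without it. *Ptprc*, the gene for CD45, and *Cd53*, a tetraspanin, had log2 fold changes of -0.057 and 0.12, and -0.31 and -0.062 without it.

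Chemokine receptors, the monocyte antigen Ly6C and the leukocyte integrins bear on the entry of monocytes from blood. Of these 6 genes, 4 were above 0 and 2 below, with a median log2 fold change of 0.25, which became -0.07 without wild-type replicate 2. *Itgb2*, the β2 chain common to the leukocyte integrins, measured 5.55, 15.0 and 14.3 FPKM in the mutants and 12.1, 4.27 and 11.4 FPKM in the wild-type mice. Each group held 1 low mouse, and the other 4 mice lay between 11.4 and 15.0 FPKM. *Itgb2* had a log2 fold change of 0.33 (SE 0.45, edgeR adjusted p = 0.843), and -0.053 without wild-type replicate 2.

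*Itgam*, the CD11b chain that pairs with it, measured 5.45, 7.31 and 7.09 FPKM in the mutants and 5.57, 2.75 and 5.99 FPKM in the wild-type mice. Mutant replicate 1 kept the groups from separating. *Itgam* had a log2 fold change of 0.40 (SE 0.25, edgeR adjusted p = 0.591), and 0.14 without wild-type replicate 2. *Itgax*, the CD11c chain, ranged from 1.20 to 2.09 FPKM in the mutants and from 0.58 to 2.25 FPKM in the wild-type mice, with a log2 fold change of -0.077, and -0.46 without that mouse.

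*Ccr2*, the receptor that brings monocytes out of the marrow, measured 0.43, 1.33 and 0.93 FPKM in the mutants and 1.01, 0.80 and 0.57 FPKM in the wild-type mice. *Ly6c2* measured 1.17, 3.62 and 1.65 FPKM in the mutants and 3.06, 2.88 and 2.76 FPKM in the wild-type mice. In both of these genes wild-type replicate 2 lay between the other wild-type mice, unlike in most of the set. Their log2 fold changes were 0.23 and -0.56, with edgeR adjusted p of 0.901 and 0.662. *Cx3cr1*, the fractalkine receptor of resident macrophages and patrolling monocytes, had a log2 fold change of 0.27 from levels of 0.63 to 3.27 FPKM, and -0.090 without wild-type replicate 2. *Ly6c2* had fractional counts, as had *Csf1r* and *Itgam*, as can arise when a counting tool divides reads among genes.

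PU.1 binds promoters of many myeloid genes at a core that reads GAGGAA. RefSeq promoter sequences of GRCm38.p6, 250 bases before to 50 bases after a start, were at hand for 26 of the 41 genes. The core, searched on both strands, was found in 17 of their 32 promoters, those of 15 genes, and in 28.3% of all 32851 promoters. A match describes letters and is not a measured binding site. The *Itgam* promoter is shown because it is a long-studied promoter of this kind. The 120 bases before its start, chr7:128062520-128062639 on the plus strand, hold the core in capitals on the gene's strand 84 to 79 bases before the start and on the opposite strand, as TTCCTC, 15 to 10 bases before it.
Itgam: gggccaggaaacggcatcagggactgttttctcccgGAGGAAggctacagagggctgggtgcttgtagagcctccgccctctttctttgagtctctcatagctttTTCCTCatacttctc

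Of the 5 scavenger and pattern recognition receptor genes, 3 had a log2 fold change above 0 and 2 one below, with a median of 0.04, and none passed the test. The same genes without wild-type replicate 2 had a median of -0.20, with 2 above 0 and 3 below. *Cd14*, the co-receptor for bacterial lipopolysaccharide, measured 34.3, 42.2 and 49.4 FPKM in the mutants and 45.9, 60.2 and 47.9 FPKM in the wild-type mice. Wild-type replicate 2 was the highest of the 6 here, the opposite of its place in most of these genes. For *Cd14* the log2 fold change was -0.37 (SE 0.17, edgeR adjusted p = 0.445), and -0.20 without that mouse.

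*Clec4n*, which encodes the fungal receptor dectin-2 of macrophages, monocytes and neutrophils, had the largest log2 fold change toward the mutants of the 41 genes with all 6 mice, while without wild-type replicate 2 that of *Chil3* was larger. It measured 3.35, 3.02 and 5.28 FPKM in the mutants and 1.78, 0.90 and 2.86 FPKM in the wild-type mice. The groups did not overlap, which held for 1 of the 41 genes in this direction and for 14.0% of all genes tested. This gave a log2 fold change of 0.99 (SE 0.40), with an unadjusted p of 0.040 and an edgeR adjusted p of 0.372. Without wild-type replicate 2 it was 0.68 (adjusted p = 0.337). Counts were low, from 12 to 67 per mouse.

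The mannose receptor gene *Mrc1* and the haemoglobin-haptoglobin receptor gene *Cd163* had log2 fold changes of 0.04 and -0.27, and -0.33 and -0.48 without wild-type replicate 2. *Msr1*, a scavenger receptor for modified lipoproteins, had 0.45. Its level in wild-type replicate 2 was 0.25 FPKM, against 1.16 to 2.05 FPKM in the other 5 mice, and its log2 fold change without that mouse was 0.05.

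The 4 Fc receptor and adaptor genes were all above 0, with a median log2 fold change of 0.32, and none passed the test. Their median was 0.10 without wild-type replicate 2, with 3 above 0 and 1 below. *Tyrobp*, which encodes DAP12 (chromosome 7, 30413760 to 30417585), measured 25.8, 41.9 and 46.8 FPKM in the mutants and 46.9, 16.5 and 38.5 FPKM in the wild-type mice. *Fcer1g*, the FcRγ chain, measured 18.9, 30.1 and 28.7 FPKM in the mutants and 24.8, 9.29 and 22.0 FPKM in the wild-type mice. In both adaptors the mice kept the same order at the bottom, wild-type replicate 2 and then mutant replicate 1. *Tyrobp* had a log2 fold change of 0.12 (SE 0.35, edgeR adjusted p = 0.936) and *Fcer1g* one of 0.41 (SE 0.33, adjusted p = 0.686). Without wild-type replicate 2 these were -0.20 and 0.11. The high-affinity receptor gene *Fcgr1* and the low-affinity receptor gene *Fcgr3* had log2 fold changes of 0.22 and 0.46, and 0.093 and 0.24 without that mouse.

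The kinases and signal transducers include enzymes that act in the pathways SHP-1 limits. *Lyn*, a SRC-family kinase, measured 8.79, 9.66 and 10.2 FPKM in the mutants and 9.07, 7.05 and 8.44 FPKM in the wild-type mice. Its log2 fold change of 0.16 had the smallest standard error of the 41 genes with all 6 mice (0.12), with a 95% interval from -0.11 to 0.43, and was 0.091 without wild-type replicate 2. *Vav1*, a guanine nucleotide exchange factor, measured 1.68, 2.27 and 2.35 FPKM in the mutants and 2.77, 0.77 and 2.10 FPKM in the wild-type mice. *Vav1* had a log2 fold change of 0.10, *Syk*, the kinase recruited to ITAM adaptors, 0.15, and the kinase gene *Btk* 0.06. Without wild-type replicate 2 these were -0.25, 0.0078 and -0.28. All 4 were lowest in wild-type replicate 2, and their median went from 0.13 with that mouse to -0.12 without it.

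The 3 genes of the phagocyte NADPH oxidase were above 0 in both comparisons, with a median log2 fold change of 0.40, and 0.24 without wild-type replicate 2. *Ncf1*, the cytosolic subunit p47phox, measured 3.63, 3.64 and 5.25 FPKM in the mutants and 4.56, 1.56 and 3.01 FPKM in the wild-type mice. *Ncf4*, the subunit p40phox, measured 1.52, 2.89 and 2.66 FPKM in the mutants and 2.31, 1.43 and 1.93 FPKM in the wild-type mice. The groups overlapped in both. Their log2 fold changes were 0.40 (SE 0.34, edgeR adjusted p = 0.715) and 0.35 (SE 0.31, adjusted p = 0.728). *Cybb*, the membrane subunit gp91phox, had 0.47 (adjusted p = 0.651). Leaving out wild-type replicate 2 gave 0.10 for *Ncf1*, 0.24 for *Ncf4* and 0.25 for *Cybb*.

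**Figure D3:**
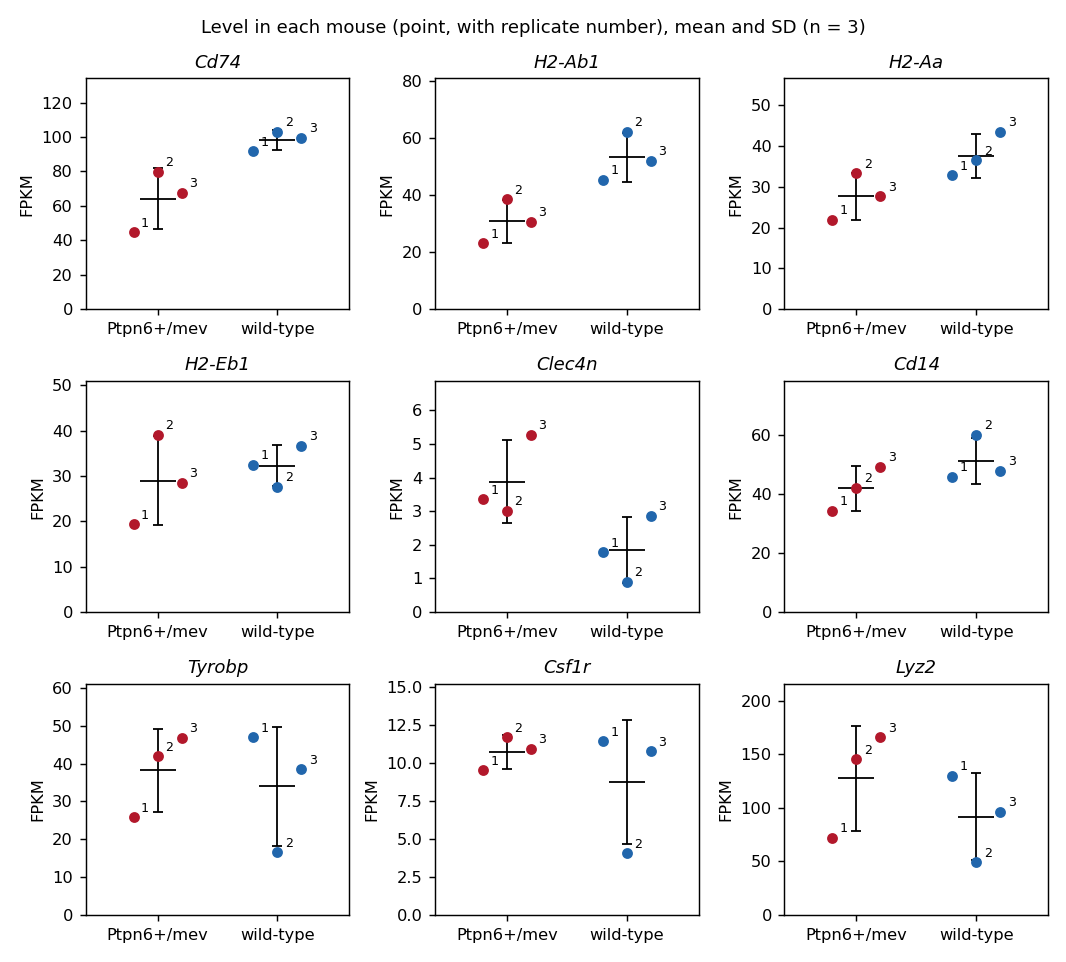
Level of selected genes in each mouse (vertical axis, FPKM, starting at 0), with replicate numbers beside the points and the group mean and SD (n = 3). In *Cd74* and *H2-Ab1* all 3 mutants lie below all 3 wild-type mice, in *Clec4n* they lie above them, and *Csf1r*, *Lyz2* and *Tyrobp* overlap and are lowest in wild-type replicate 2.

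In the class II genes the mice stood in another order. *H2-Ab1*, the β chain of the class II molecule I-A (chromosome 17, 34257689 to 34269419), measured 23.2, 38.5 and 30.6 FPKM in the mutants and 45.3, 62.2 and 51.9 FPKM in the wild-type mice. The group means were 30.7 ± 7.65 and 53.1 ± 8.47 FPKM (SD, n = 3), and the groups did not overlap. The log2 fold change of -0.87 (SE 0.21, 95% interval from -1.34 to -0.39) was the lowest of the 41 genes with all 6 mice, while without wild-type replicate 2 that of *Ms4a7* was lower. The edgeR quasi-likelihood p was 0.0030 unadjusted and 0.149 adjusted, so the gene did not pass the FDR of 0.05.

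*Cd74*, the invariant chain that guides class II molecules to the compartment where they take up peptide, measured 44.8, 79.9 and 67.7 FPKM in the mutants and 91.7, 103 and 99.7 FPKM in the wild-type mice. The group means were 64.2 ± 17.8 and 98.2 ± 5.84 FPKM (SD, n = 3), again with every mutant below every wild-type mouse. *Cd74* had a log2 fold change of -0.68 (SE 0.19, 95% interval from -1.13 to -0.23, edgeR adjusted p = 0.208). A separation toward lower levels in the mutants was found in 2 of the 41 genes, *Cd74* and *H2-Ab1*, and in 6.38% of all genes tested.

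*H2-Aa*, the α chain of I-A, measured 21.9, 33.3 and 27.7 FPKM in the mutants and 32.8, 36.6 and 43.5 FPKM in the wild-type mice. Mutant replicate 2 lay just above wild-type replicate 1, so the groups overlapped. *H2-Aa* had a log2 fold change of -0.51 (SE 0.17, edgeR adjusted p = 0.278). *H2-Eb1*, the β chain of I-E, measured 19.3, 39.2 and 28.6 FPKM in the mutants and 32.5, 27.7 and 36.7 FPKM in the wild-type mice. Its highest mouse was a mutant, and its log2 fold change was -0.22 (adjusted p = 0.775), and -0.29 without wild-type replicate 2.

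*Ciita*, the transactivator of class II genes, had a log2 fold change of -0.20, and *Cd86*, a costimulatory receptor ligand, 0.07, both from overlapping groups, and -0.41 and -0.087 without wild-type replicate 2. *Ciita* was the only gene of these 6 that was lowest in wild-type replicate 2. *H2-Ab1* and *Cd74* were instead highest in that mouse. Without that mouse the log2 fold changes were -0.70 for *H2-Ab1*, -0.62 for *Cd74* and -0.51 for *H2-Aa*, with edgeR adjusted p of 0.0788, 0.133 and 0.178.

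The call rested on the test. With edgeR's exact test *H2-Ab1* (adjusted p = 0.0074) and *Cd74* (adjusted p = 0.0470) passed, among 2.99% of all genes. With DESeq2 the same 2 genes passed (adjusted p of 0.0067 and 0.0358), among 2.86%. The adjusted p of *H2-Ab1* ranged from 0.0067 to 0.517 over all alternatives, and that of *Cd74* from 0.0358 to 0.554, with the highest in both where 1 mouse was left out.

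Class II expression was also set against the other blood cell genes, in a ratio chosen after the values had been seen. The summed level of *Cd74*, *H2-Aa*, *H2-Ab1* and *H2-Eb1* was 3.67, 4.22 and 3.30 times that of the 4 pan-leukocyte genes in the mutants and 4.45, 13.0 and 6.12 times in the wild-type mice. All 3 mutants were below all 3 wild-type mice, with 4.22 and 4.45 the closest values, and wild-type replicate 2 was far above the rest. Its class II sum was 229 FPKM, between the 202 and 232 FPKM of the other wild-type mice. Its pan-leukocyte sum was 17.6 FPKM, against 29.8 to 46.8 FPKM in the other mice. No test was made of this ratio.

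Of other cells that can carry class II, B cells and dendritic cells were read here, and their markers were low. The summed level of 5 B cell genes was 0.39 to 0.81 FPKM in the mutants and 0.63 to 1.75 FPKM in the wild-type mice, and *Ms4a1* was listed at 0 in all mice but 1. The highest sum was that of wild-type replicate 2, where *Cd79b* alone measured 1.69 FPKM, against 0.32 to 0.70 FPKM in the other mice. None of the 5 had enough counts to be tested. Over 6 dendritic cell genes the sums were 4.28 to 4.99 and 2.54 to 4.55 FPKM, and *Xcr1* was at most 0.06 FPKM. Most of these sums came from 1 gene, *Zbtb46*, at 3.12 to 3.34 FPKM in the mutants and 1.57 to 3.35 FPKM in the wild-type mice. It was lowest in wild-type replicate 2, as the endothelial genes were. Summed levels of the 9 proximal tubule genes were lower in every mutant than in any wild-type mouse. They were 627, 759 and 643 FPKM in the mutants and 978, 822 and 912 FPKM in the wild-type mice. Of these 9 genes, 8 were below 0 and 1, the transporter gene *Slc22a8*, passed the test as lower (edgeR adjusted p = 0.0443). Without wild-type replicate 2, all 9 were below 0 and 5 passed as lower, where 1.80% of all genes passed in either direction. The 7 fibroblast genes were all below 0 with and without that mouse. None of them passed with all 6 mice, and 2 passed as lower without it. Among 9 tubular injury genes, 6 were above 0 and 3 below, with *Spp1*, the most abundant, at -0.38. Without wild-type replicate 2, 7 were above 0 and 2 below, with *Spp1* at -0.22. Without overlap between groups, 5 of the 9 were higher in the mutants, beside 14.0% of all genes. None passed with all 6 mice and 2, *Krt18* and *Krt20*, passed as higher without wild-type replicate 2, beside the same 1.80% of all genes. The part of these tubular and fibroblast genes in the class II values was not tested.

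Further genes of the class II pathway, from a list set aside from the 41, had a median log2 fold change of -0.20 over the 6 of 9 that could be tested, with 2 above 0 and 4 below, and none passed. *H2-DMa* and *H2-DMb1*, which help to load peptide, had -0.50 and -0.49 (edgeR adjusted p of 0.451 and 0.445). *Rfxap* and *Rfxank*, subunits of the factor that binds the X box, had 0.05 and 0.08, and *Rfx5* had -0.18. Without wild-type replicate 2, *Rfxap* and *Rfxank* had 0.0048 and 0.043.

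Class II genes are switched on through X and Y boxes just before the start, to which CIITA is drawn by bound factors. The promoters of *H2-Aa* and *H2-Eb1* were the 2 of the class II structural genes at hand. They are shown because the boxes are a common switch of class II genes. The Y box was searched as CTGATTGG and the X box as AACNGATG, on both strands. The Y box was found in both promoters and in 4.10% of all promoters. The X box was found in that of *H2-Eb1* and in 2.32% of all. Only these strings were searched, so the lack of a match in *H2-Aa* does not show that it has no X box. Capitals mark the matches, which do not overlap, in the 120 bases before each start. These bases are chr17:34287824-34287943 on the minus strand for *H2-Aa* and chr17:34305747-34305866 on the plus strand for *H2-Eb1*. The Y box lies 51 to 44 bases before the start of *H2-Aa* and 62 to 55 bases before that of *H2-Eb1*, where the X box lies 89 to 82 bases before it.
H2-Aa: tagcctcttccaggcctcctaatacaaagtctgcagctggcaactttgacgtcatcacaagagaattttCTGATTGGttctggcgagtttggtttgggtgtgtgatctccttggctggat
H2-Eb1: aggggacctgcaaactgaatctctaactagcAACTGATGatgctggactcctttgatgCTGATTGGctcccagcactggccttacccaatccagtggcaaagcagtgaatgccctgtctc

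*Chil3*, a chitinase-like secreted protein that macrophages make during repair (chromosome 3, 106147554 to 106167564), measured 7.19, 18.8 and 20.3 FPKM in the mutants and 9.55, 14.8 and 8.23 FPKM in the wild-type mice. Mutant replicate 1 was the lowest of all mice while the other mutants were the 2 highest. *Chil3* had a log2 fold change of 0.43 (SE 0.39, edgeR adjusted p = 0.736), and 0.76 (adjusted p = 0.310) without wild-type replicate 2.

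In a comparison added after the data had been seen, both low mice, mutant replicate 1 and wild-type replicate 2, were left out. *Chil3* was then the 1 gene of the 41 that passed, with a log2 fold change of 1.10 (edgeR adjusted p = 0.0042), beside 2.63% of all genes. The comparison has 2 mice a group, and the mice to leave out were picked by the level of these same genes, so it does not stand as independent support. *H2-Ab1* had -0.54 (adjusted p = 0.0569), *Cd74* -0.42 (adjusted p = 0.0720) and *Clec4n* 0.77 (adjusted p = 0.314) there.

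*Clec4n* and *Chil3* are also expressed in neutrophils. The summed level of 10 neutrophil genes was 26.8, 62.7 and 40.8 FPKM in the mutants and 49.7, 27.4 and 43.0 FPKM in the wild-type mice, and *Ly6g* was at most 0.77 FPKM. Of the 6 that could be tested, 3 were above 0 and 3 below, and none passed. Of 7 that could be tested without wild-type replicate 2, 2 were above 0 and 5 below. The part of neutrophils in the levels of the receptor, adaptor and oxidase genes was not tested.

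Other myeloid genes were read from a list set aside from the 41. Of its 52 genes, 50 could be tested, none passed, 40 were above 0 and 10 below, and the median log2 fold change was 0.15. Without wild-type replicate 2, 51 could be tested, of which 19 were above 0 and 32 below, with a median of -0.07. Of the genes in this list, 2 were without overlap higher in the mutants, beside 14.0% of all genes, and 1 lower, beside 6.38%. They are named here after their values had been seen. *Tlr13*, a sensor of bacterial RNA, had a log2 fold change of 0.89 (edgeR adjusted p = 0.292) and *Clec4d*, a C-type lectin receptor, one of 0.66 (adjusted p = 0.373). *Irf8*, a transcription factor of monocytes and dendritic cells, measured 8.79, 12.9 and 11.5 FPKM in the mutants and 15.2, 14.6 and 18.1 FPKM in the wild-type mice. All 3 mutants lay below the wild-type mice, with a log2 fold change of -0.59 (SE 0.15, adjusted p = 0.174).

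The growth factors for *Csf1r* were both well expressed. *Csf1* measured 19.6, 25.7 and 25.3 FPKM in the mutants and 23.5, 8.74 and 25.8 FPKM in the wild-type mice, and *Il34*, which tubular cells make, 52.5, 51.6 and 67.9 FPKM and 53.6, 69.3 and 51.0 FPKM. Wild-type replicate 2 was the lowest mouse for *Csf1* and the highest for *Il34*. Their log2 fold changes were 0.28 and -0.10 (edgeR adjusted p of 0.789 and 0.889), and without that mouse -0.042 and 0.092. Of the 6 testable growth factors and chemoattractants, 3 were above 0 and 3 below, and without it 1 was above 0 and 5 below. *Cx3cl1* was the most abundant of them, at a mean of 59.0 FPKM over the 6 mice. Its log2 fold change was -0.44 (edgeR adjusted p = 0.510), and -0.65 without wild-type replicate 2 (adjusted p = 0.0857).

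**Figure D4:**
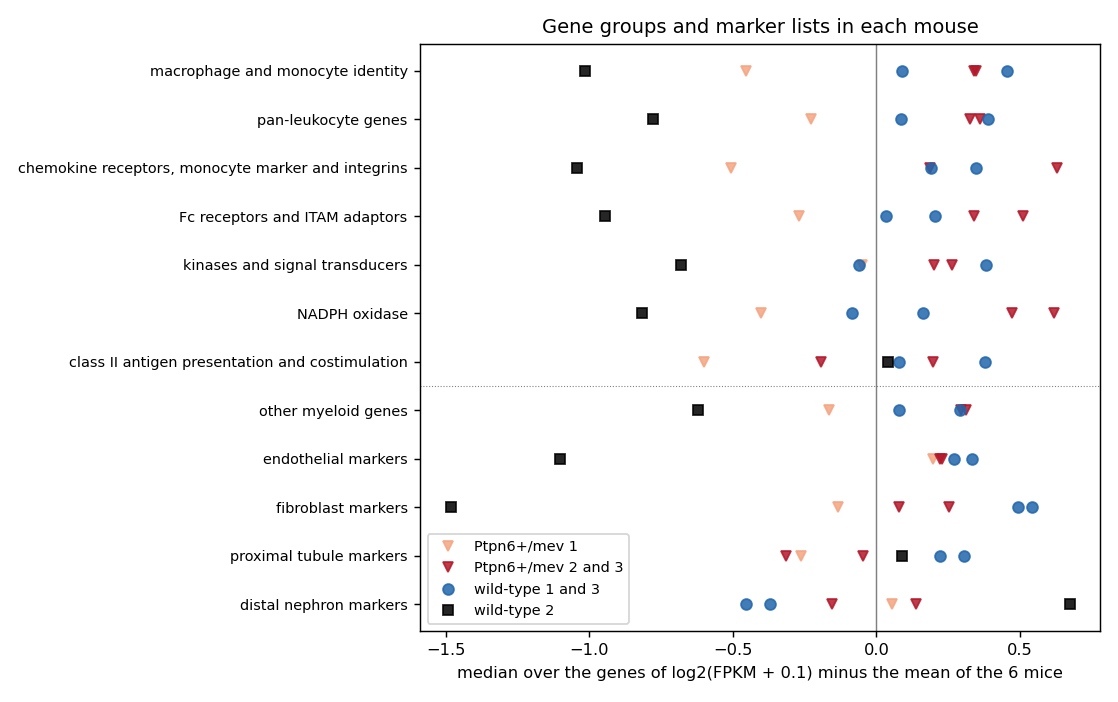
Median log2 deviation (horizontal axis) in each mouse of 7 role groups, above the dotted line, and 5 comparison lists, below it, each gene set to its mean over the 6 mice. Wild-type replicate 2 lies lowest in the role groups other than class II and in endothelial (-1.10) and fibroblast (-1.48) genes, while its class II value is 0.04 and mutant replicate 1 has the lowest class II value at -0.60.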

How the data were processed

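Poly-A mRNA from 6 kidneys was sequenced by the authors, who aligned the reads with TopHat to GRCm38.p5 and evaluated expression with Cufflinks. The submitters' processing notes also name Bowtie2 and RSEM. The authors deposited, for each mouse, an expected count (1744 genes had fractional values) and an FPKM value. The tool behind the counts is not given in the sources used here.

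Expected counts were rounded and tested with edgeR 4.0.16 (R 4.3.3): TMM normalization, filterByExpr, quasi-likelihood F-test, Benjamini-Hochberg adjustment over 13036 genes. Intervals use the standard error and the fit's degrees of freedom. The p-values measure the spread between these mice. FPKM values served for levels, with limma 3.58.1 on log2(FPKM + 1 or 0.1) as an alternative. The other alternatives, 1 of the 16 in all added after the data were seen, were DESeq2 1.42.0, its size factors, upper quartile normalization, the exact test, 2 count filters, a replicate block each mouse left out, and both low mice left out (the added one). Scripts were tested on simulated data.

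The genes and lists were chosen with earlier results of these data known. Values in every mouse were given for genes past the FDR, for the largest rise and fall, and for the 2 most abundant genes of each role; values of 1 gene of the 41 are not reported here, though it stands in the counts and medians; further names were chosen for their role or after their values were seen. Positions are from GENCODE M21. Promoters of the genes *Cd74*, *Ncf4*, *Csf1r*, *Spi1*, *Itgb2*, *Clec4n*, *H2-Ab1*, *Adgre1*, *Tyrobp*, *Cd14*, *Cd86*, *Ciita*, *Lyn* and *Msr1*, and protein sequences, were not analysed here.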

Additional observations from a re-analysis of the deposited data

How the results depend on the processing

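The count of all genes past an FDR of 0.05 was 18. It was 52 with no filter on low counts, 390 with the exact test, 382 with DESeq2, 8 with limma on log2(FPKM + 0.1), 345 without both low mice, and 1 to 237 when 1 mouse was left out, the latter without wild-type replicate 2. Of the 41 genes, 2 passed with the exact test, 2 with DESeq2 and 1 without both low mice, and 0 with the other alternatives. The count filter of 10 in every library left 37 of the 41. Replicate numbers did not pair the mice: correlations of deviations between same-numbered mice were -0.144, -0.184 and -0.130, and a replicate block left 1 gene past the FDR, none of the 41. The block gave *Ptprc* 0.0046 and *Itgax* 0.0052, the opposite sign of their log2 fold changes. Limma gave *Spi1* 0.21 and 0.26 and *Itgax* 0.057 and 0.16, with pseudocounts of 1 and 0.1. No other gene of the 41 changed sign under these fits.

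When each mouse was left out in turn, 20 of the 41 genes kept their sign, *Cd74* (-0.88 to -0.48), *H2-Aa* (-0.67 to -0.37), *H2-Ab1* (-1.06 to -0.70), *Clec4n* (0.68 to 1.42) and *Chil3* (0.18 to 0.77) among them. *Ly6c2* (-1.14 to -0.27) and *Aif1* (-1.12 to -0.074) kept it too, lowest without mutant replicate 2 and highest without mutant replicate 1. The other 21 changed sign, 11 of them without wild-type replicate 2, and the cause was not tested. In 20 of the 21, log2 fold changes ranged from -0.24 to 0.50 for *Adgre1*, -0.091 to 0.44 for *Csf1r*, -0.75 to 0.28 for *Ms4a7*, -0.28 to 0.28 for *Spi1*, -0.31 to 0.27 for *Ptprc*, -0.092 to 0.39 for *Laptm5* and -0.10 to 0.39 for *Cd53*. They ranged from -0.090 to 0.62 for *Cx3cr1*, -0.30 to 0.60 for *Ccr2*, -0.46 to 0.26 for *Itgax*, -0.053 to 0.70 for *Itgb2*, -0.33 to 0.53 for *Mrc1*, -0.65 to 0.0067 for *Cd163* and -0.019 to 0.51 for *Fcgr1*. They further ranged from -0.20 to 0.40 for *Tyrobp*, -0.28 to 0.64 for *Btk*, -0.25 to 0.46 for *Vav1*, -0.50 to 0.0024 for *H2-Eb1*, -0.45 to 0.12 for *Ciita* and -0.11 to 0.34 for *Cd86*. The median over the 41 genes ranged from -0.091 to 0.37. Depth limits the genes under 1 FPKM, whose values rest on 6 to 85 counts per mouse.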
